A study of Mus musculus with 4 samples.

Results

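Siglecf-positive tumour neutrophils were mature neutrophils of mouse pancreatic tumours that carried at least 1 UMI (unique molecular identifier, 1 captured mRNA molecule) of Siglecf and at most 1 UMI of Retnlg, a secreted protein of freshly released neutrophils. They numbered 1894 of 44162 filtered cells in 4 single-cell libraries: 1198 in the AF12198-treated tumour, 696 in the control tumour, 0 in the ligated pancreas and 0 in the normal pancreas. To enter the set, a cell needed at least 3 UMIs over the neutrophil genes Csf3r, Cxcr2, G0s2, Hdc, Il1r2 and Acod1. It also needed 0 UMIs of Csf1r, C1qa, Cd3e and Epcam, and under 20 UMIs over the granule genes Ngp, Camp and Ltf. Cells were kept at 500 UMIs or more, 250 genes or more and at most 20% mitochondrial UMIs. The members were thus chosen by their measured UMIs, so Siglecf, Retnlg, the gate genes and the cell numbers describe the set and are not findings about it.

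The tumours grew from KPC cells, mouse pancreatic cancer cells, placed into a pancreas whose duct had been tied off by a suture. The AF12198-treated mice received weekly intraperitoneal injections of AF12198, and the control mice received saline. AF12198 is a peptide described as an antagonist of the interleukin-1 receptor IL1R1. Whether it blocked that receptor in these mice was not tested. The ligated pancreas had the suture without tumour cells, the normal pancreas had neither, and all tissue was taken at 4 weeks. Each of the 4 groups is 1 library; the labels name no strain, sex or number of animals for any of them. No comparison therefore has a replicate check or a test, the intervals given are exact 95% intervals that cover counting error only, and animal, library and treatment cannot be told apart.

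Siglec-F is a receptor that binds sialic acid on cell surfaces and can pass on inhibitory signals. In mice it is best known on eosinophils and on the macrophages of lung air spaces, and it also marks a tumour-infiltrating neutrophil state described in mouse lung cancer. Circulating neutrophils leave the bone marrow with stored granule proteins, and in tissue they lose these and take up transcription of cytokines, chemokines and metabolic genes.

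Promoter sequence is shown for the gene that defines the set and for 3 interferon-induced genes that were lower in it (described below), because the element that interferon-activated factors bind is known and can be searched for. The 250 bases before each start site were taken from RefSeq on build GRCm38.p6 and are printed 5′ to 3′ on the gene's own strand. Capitals mark GAGGAA, the core that PU.1 and related myeloid factors bind, in Siglecf, and the interferon-stimulated response element (GAAA, then any 2 bases, then GAAA) in the other 3, each searched on both strands. The windows lie at chr7:43351091-43351340 for Siglecf (plus strand), chr12:26456453-26456702 for Rsad2 (minus strand), chr19:34640639-34640888 for Ifit1 (plus strand) and chr4:156200819-156201068 for Isg15 (minus strand).
Siglecf: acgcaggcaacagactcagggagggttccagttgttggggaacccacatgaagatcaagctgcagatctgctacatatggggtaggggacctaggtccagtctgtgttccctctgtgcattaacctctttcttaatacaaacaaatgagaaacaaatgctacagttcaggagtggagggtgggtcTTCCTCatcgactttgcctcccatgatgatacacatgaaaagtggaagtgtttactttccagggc
Rsad2: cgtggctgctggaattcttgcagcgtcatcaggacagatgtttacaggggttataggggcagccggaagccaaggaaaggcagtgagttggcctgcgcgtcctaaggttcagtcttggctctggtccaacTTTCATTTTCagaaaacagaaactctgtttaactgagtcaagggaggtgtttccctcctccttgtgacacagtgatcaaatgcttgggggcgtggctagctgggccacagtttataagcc
Ifit1: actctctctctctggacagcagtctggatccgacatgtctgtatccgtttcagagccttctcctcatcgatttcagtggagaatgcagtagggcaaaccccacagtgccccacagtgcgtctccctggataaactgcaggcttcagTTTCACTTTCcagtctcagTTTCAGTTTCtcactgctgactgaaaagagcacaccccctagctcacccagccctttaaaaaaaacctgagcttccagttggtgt
Isg15: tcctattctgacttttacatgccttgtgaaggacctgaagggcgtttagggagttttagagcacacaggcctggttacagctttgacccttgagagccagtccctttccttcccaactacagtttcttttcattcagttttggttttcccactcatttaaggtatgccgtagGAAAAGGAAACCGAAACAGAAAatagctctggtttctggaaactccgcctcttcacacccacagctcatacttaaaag
The Siglecf window holds 1 match to the PU.1 core, which begins 65 bases before the start site, on the opposite strand; 7639 of 32851 promoter windows (23.3%) hold such a core. Rsad2 has 1 match to the interferon element, Ifit1 has 2, and Isg15 has a run of 3 overlapping matches. That element is in 978 of the 32851 windows (2.98%). Of the 10 interferon-induced genes lower in Siglecf-positive cells in both tumours, 9 had a promoter window. The element was in at least 1 window of 4 of them (Ifit1, Isg15, Rsad2 and Slfn5). These genes come from a list of interferon-induced genes, and listed genes that were not lower were not counted. The count therefore says nothing about their lower level. A match describes these letters and shows no binding.

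The filtered libraries held 19868 cells in the AF12198-treated tumour, 21398 in the control tumour, 1124 in the ligated pancreas and 1772 in the normal pancreas, with medians of 1596 to 2425 UMIs per cell. Barcodes shared between the 2 tumour libraries numbered 129, or 0.591% and 0.556% of each, and the other pairs of libraries shared 1 to 18. No barcode belonged to a Siglecf-positive cell in both tumours at once. Whether a Siglecf-positive cell shared its barcode with any other cell of the other tumour was not counted. The share of summed UMIs in Siglecf-positive cells that could come from free RNA was estimated from T cell, B cell and epithelial genes. It was 22.0% in the AF12198-treated tumour and 53.0% in the control tumour. A single cell held 48.2% of the 1296 epithelial UMIs in the control tumour and 9.36% of 513 in the AF12198-treated tumour. The control estimate thus leans on 1 cell. Among the T cells, which should lack C1qa, 15.0% held a C1qa UMI in the AF12198-treated tumour and 41.8% in the control tumour, and the rule discards every cell with 1. A C1qa UMI alone left out 83 otherwise eligible Siglecf-positive cells in the AF12198-treated tumour and 412 in the control tumour.

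Siglecf-positive cells made up 6.03% of all filtered cells in the AF12198-treated tumour (95% interval 5.70 to 6.37) and 3.25% in the control tumour (3.02 to 3.50). The zeros allow up to 0.267% in the ligated pancreas and 0.169% in the normal pancreas. Dropping the C1qa exclusion gave 1281 cells (6.45%) in the AF12198-treated tumour and 1108 (5.18%) in the control tumour, so much of the gap in this share goes with that exclusion. The other cells of the same gate were 8617 Siglecf-negative Retnlg-low cells (4971, 3529, 98 and 19 in the AF12198-treated tumour, control tumour, ligated and normal pancreas) and 669 Retnlg-positive cells with 2 or more Retnlg UMIs (490, 167, 12 and 0). The 19 cells of the normal pancreas went against the name neutrophil: 13 of 15 neutrophil genes outside the rule, S100a8 and S100a9 among them, were at 0 UMIs, fibroblast genes reached 26200 CPM, and all 19 were mixed cells as defined below. They are not used as neutrophils here.

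A Siglecf UMI was found in 19.4% of 6169 Retnlg-low neutrophils of the AF12198-treated tumour (18.4 to 20.4) and in 16.5% of 4225 of the control tumour (15.4 to 17.6). The ratio of these shares was 1.18 (1.07 to 1.30), and 1.16 (1.02 to 1.31) after every cell was thinned to 1000 UMIs, where the shares were 13.8% and 11.9% and 974 and 747 shallower cells were left out. The Siglecf level of the same cells was 130 CPM in the AF12198-treated tumour and 87.4 CPM in the control tumour, a ratio of 1.49 (1.38 to 1.62). Without the mixed cells defined below the levels lay closer together, at 163 CPM in the AF12198-treated tumour and 135 CPM in the control tumour. These values describe 2 libraries through the genes that define the set, and no difference between treatments is read from them. Retnlg-positive neutrophils held a Siglecf UMI in 15.9% of cells in the AF12198-treated tumour (12.8 to 19.5) and in 15.6% in the control tumour (10.4 to 22.0), but in 7.07% and 7.05% once thinned. The thinned intervals were 12.9 to 14.7% in Retnlg-low and 4.79 to 10.0% in Retnlg-positive cells of the AF12198-treated tumour, and 10.9 to 13.1% and 3.57 to 12.3% in the control tumour.

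The same gene in cell types that should lack it gives the background. T cells held a Siglecf UMI in 4.41% of cells in the AF12198-treated tumour and 4.29% in the control tumour, at median depths of 3640 and 2950 UMIs, and in 1.40% and 1.44% once thinned. Macrophages stood at 4.73% and 4.54%, fibroblasts at 2.32% and 2.95%, and all of these lie well under the neutrophils, whose medians were shallower (1629 UMIs in Siglecf-positive cells of the AF12198-treated tumour and 1770 in those of the control tumour; 1328 and 1442 in Siglecf-negative cells). In the ligated pancreas 0 of 98 Retnlg-low neutrophils held one (median 1002 UMIs), which allows up to 3.06%. Among 57 granule-high neutrophils that the rule leaves out, 15 of 23 in the AF12198-treated tumour and 1 of 34 in the control tumour carried Siglecf, at median depths of 4599 and 4174 UMIs. Thinned to 1000 UMIs, 3 of 23 (13.0%; 2.78 to 33.6) and 0 of 34 (exact interval 0 to 10.3%) did.

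**Figure D1:**
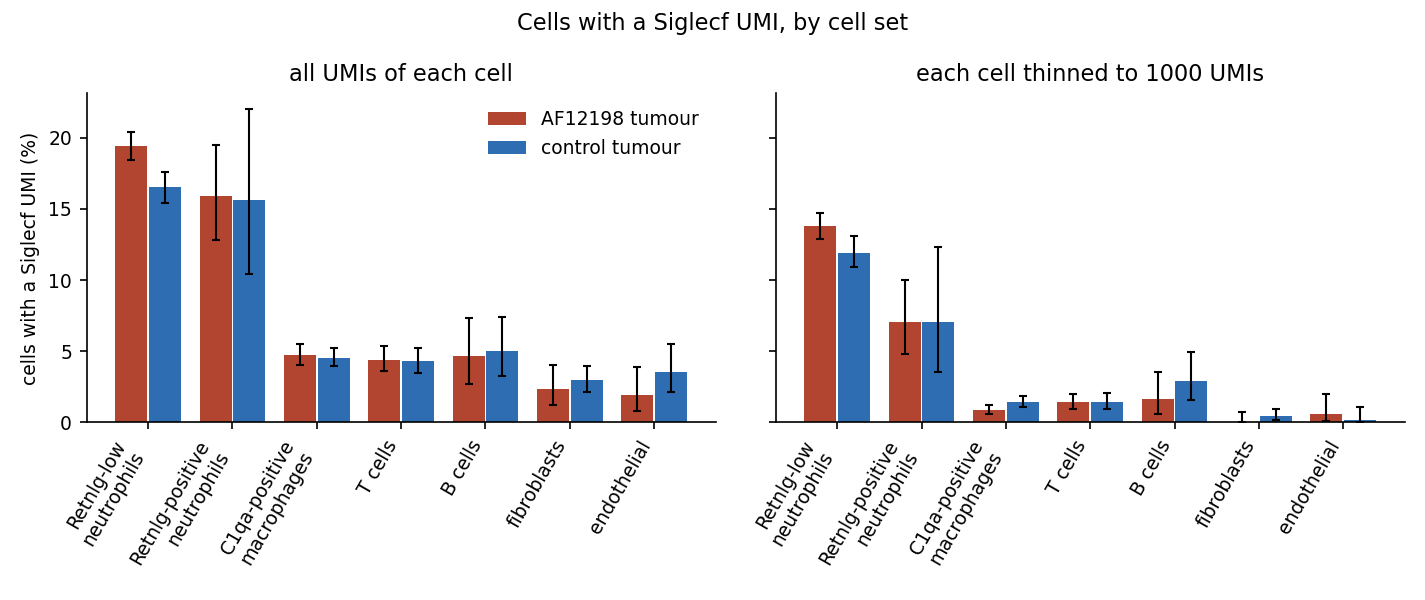
Percent of cells with at least 1 Siglecf UMI in 7 cell sets of the AF12198-treated (red) and control (blue) tumour, from all UMIs (left) and after thinning each cell to 1000 UMIs (right); bars are shares and whiskers exact 95% binomial intervals. Retnlg-low neutrophils reach 19.4% and 16.5% unthinned, and the other cell types stay near or under 5%.

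Most Siglecf-positive cells carried a single Siglecf molecule. In the AF12198-treated tumour 871 had 1 UMI, 236 had 2, 70 had 3 and 21 had 4 or more, and in the control tumour these numbers were 514, 125, 38 and 19. Just outside the Retnlg bound lay 13 Siglecf-carrying cells with 2 Retnlg UMIs in the AF12198-treated tumour and 4 in the control tumour, and just inside lay 27 and 10 with 1. The gate sat far below the typical cell: 40 and 10 members had exactly 3 gate UMIs, and 19 and 10 otherwise eligible cells had 2.

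The label was checked on neutrophil genes that the rule did not use. All 15 listed neutrophil genes (among them S100a8, Mmp9, Trem1 and Clec4d) had UMIs in the Siglecf-positive cells. Their summed level was 40900 CPM (counts per 1000000 UMIs) in the AF12198-treated tumour and 19200 in the control tumour, against 8640 and 5280 CPM over all filtered cells of those libraries. Most of it came from S100a8 and S100a9, at 15700 and 15400 CPM in the AF12198-treated tumour and 5590 and 6330 CPM in the control tumour. At least 5 UMIs of the list were found in 1183 of 1198 and 684 of 696 Siglecf-positive cells, against 12558 of 19868 and 11013 of 21398 filtered cells, so UMIs of these genes were widespread in both libraries. Siglecf-negative cells of the same gate had 24800 CPM in the AF12198-treated tumour and 11200 CPM in the control tumour. Ly6g, the classical surface marker of mouse neutrophils, had only 5 UMIs in Siglecf-positive cells of the AF12198-treated tumour and 1 in those of the control tumour. Csf3r, the G-CSF receptor, and Hdc, the histamine-forming enzyme, both gate genes, were found in 62.4% and 63.8% of Siglecf-positive cells of the AF12198-treated tumour and in 67.0% and 76.4% of those of the control tumour.

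Eosinophils, the other Siglec-F-bearing granulocyte, did not show in these sums. The granule protein genes Prg2, Prg3 and Epx and the lipoxygenase gene Alox15 were at 0 UMIs in Siglecf-positive cells of both tumours, and the whole list of 9 reached 10.4 CPM in the AF12198-treated tumour and 18.7 in the control tumour. The mast cell and basophil list reached 20.8 and 42.3 CPM, with Ms4a2 at 0. Macrophage genes reached 549 CPM in the AF12198-treated tumour and 991 in the control tumour, close to the 532 and 1010 CPM of Siglecf-negative cells. Within that list Adgre1, a surface receptor widely used to mark macrophages and also reported on eosinophils, had 197 CPM in Siglecf-positive and 90.5 CPM in Siglecf-negative cells of the AF12198-treated tumour, and 113 CPM (97.7 to 129) against 68.3 CPM (63.1 to 73.9) in the control tumour. The complement gene C1qb, by contrast, stood at 33.7 against 34.6 CPM and at 57.1 against 56.4 CPM.

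Markers of other cells were unevenly spread and bear on the comparisons that follow. Fibroblast genes (Col1a1, Col1a2, Col3a1, Dcn) summed to 416 CPM in Siglecf-positive and 4220 CPM in Siglecf-negative cells of the AF12198-treated tumour, and to 4950 CPM in positive and 8260 CPM in negative cells of the control tumour. Acinar enzyme genes summed to 5600 CPM in positive and 2630 CPM in negative cells of the AF12198-treated tumour, and to 100 CPM in positive and 250 CPM in negative cells of the control tumour. The remaining lists in Siglecf-positive cells of the AF12198-treated and control tumour were dendritic cell genes (440 and 641 CPM), T cell genes (67.7 and 69.2), B cell genes (16.0 and 33.5), NK cell genes (56.1 and 36.2), epithelial genes (206 and 711), endothelial genes (36.5 and 69.2) and haemoglobins (3380 and 4620). Cells in which 1 such list took at least 5 UMIs and at least 0.5% of all UMIs are called mixed here, whatever their origin. They were 66 (5.51%) of the Siglecf-positive and 504 (10.1%) of the Siglecf-negative cells of the AF12198-treated tumour, and 59 (8.48%) of the Siglecf-positive and 581 (16.5%) of the Siglecf-negative cells of the control tumour. They held 10.6% of the UMIs of Siglecf-positive and 27.6% of those of Siglecf-negative cells of the AF12198-treated tumour, and 25.3% and 43.1% in the control tumour. Without them the fibroblast list in Siglecf-positive cells came to 147 CPM in the AF12198-treated tumour and 341 CPM in the control tumour. Values without mixed cells are given beside results that they move.

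Siglecf-positive cells were next set against Siglecf-negative cells of the same gate, library by library. A gene was called when its level differed at least 1.5-fold with the counting interval of the ratio excluding 1, and log2 ratios are of CPM + 1. In the AF12198-treated tumour 370 of 5504 genes (6.72%) were called higher and 684 (12.4%) lower in Siglecf-positive cells, and in the control tumour 220 of 6588 (3.34%) higher and 599 (9.09%) lower. In both tumours at once, 80 of 5312 genes (1.51%) were higher and 288 (5.42%) lower. Many lower calls were not made once mixed cells were left out: without them 90 (1.82%) were higher and 143 (2.89%) lower of 4947. Singly, 10.3% were then higher and 6.6% lower in the AF12198-treated tumour and 5.12% and 5.29% in the control tumour, and the share of higher calls went to 61.0% against 35.1% in the AF12198-treated tumour and to 49.2% against 26.9% in the control tumour. Of the 80 higher genes 43 were also called without mixed cells, and of the 288 lower genes 80.

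The 10 top-ranked genes higher in Siglecf-positive cells of both tumours all kept their calls without mixed cells. Ltc4s, which makes the inflammatory lipid leukotriene C4, had 159 CPM in Siglecf-positive and 51.5 CPM in Siglecf-negative cells of the AF12198-treated tumour, a ratio of 3.08 (2.70 to 3.52). In the control tumour it had 95 CPM in positive and 33.6 CPM in negative cells, a ratio of 2.82 (2.33 to 3.41). It was seen in 24.2% of positive against 7.95% of negative cells in the AF12198-treated tumour and 20.1% against 7.25% in the control tumour. Its levels in Siglecf-positive cells thus stood about as far above the negative cells in both libraries.

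Adamdec1, a secreted protease of the ADAM family, had 131 CPM in Siglecf-positive and 35.0 CPM in Siglecf-negative cells of the AF12198-treated tumour (ratio 3.75; 3.22 to 4.38), and 107 CPM in positive and 40.2 CPM in negative cells of the control tumour (ratio 2.67; 2.23 to 3.18). Gpd1l, a relative of glycerol-3-phosphate dehydrogenase, had 62.1 CPM in positive and 23.0 CPM in negative cells of the AF12198-treated tumour and 98.3 CPM in positive and 40.9 CPM in negative cells of the control tumour. Adamdec1 and Gpd1l stood at 2.40- to 3.75-fold in the positive cells.

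The calprotectin subunits S100a8 and S100a9, abundant calcium-binding alarmins of neutrophils, were also higher. S100a8 had 15700 CPM in Siglecf-positive and 7600 CPM in Siglecf-negative cells of the AF12198-treated tumour (log2 ratio 1.05), and 5590 CPM in positive and 2800 CPM in negative cells of the control tumour (log2 ratio 1.00). S100a9 had log2 ratios of 0.91 in the AF12198-treated tumour and 1.04 in the control tumour. Without mixed cells the S100a8 log2 ratios were 0.76 and 0.64. Others among the 10 were Chil3, a chitinase-like secreted protein (log2 ratios 1.85 in the AF12198-treated and 1.24 in the control tumour, with 36.7% and 35.4% of its UMIs in a single cell), Tmem273 (1.42 and 0.96), the ectonucleotidase Entpd3 (1.11 and 0.94), and Scimp, an adaptor of immune receptors (0.88 and 0.96).

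Of the 10 top-ranked lower genes, 3 were neutrophil genes that stayed lower without mixed cells. Rsad2, the interferon-induced antiviral enzyme viperin, had 50.1 CPM in Siglecf-positive and 150 CPM in Siglecf-negative cells of the AF12198-treated tumour, and 85.1 CPM in positive and 226 CPM in negative cells of the control tumour (log2 ratios −1.57 and −1.40). Asprv1, a protease of mature neutrophils and skin, had 34.1 CPM in positive and 101 CPM in negative cells of the AF12198-treated tumour, and 20.9 CPM in positive and 59.6 CPM in negative cells of the control tumour (−1.53 and −1.47). Lrg1, a secreted granule glycoprotein, had 24.8 CPM in positive and 64.7 CPM in negative cells of the AF12198-treated tumour, and 20.3 CPM in positive and 56.7 CPM in negative cells of the control tumour (−1.35 and −1.44). All 3 stood well under their Siglecf-negative level in both libraries.

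The other 7 are known from mast cells (Mcpt1, Mcpt2) or from stromal cells (Tagln, Acta2, Cxcl14, Timp1, Cilp) and were not called lower in both tumours once mixed cells were left out. Mcpt2, a mast cell protease, had 11.6 CPM in Siglecf-positive and 830 CPM in Siglecf-negative cells of the AF12198-treated tumour (log2 ratio −6.04), and without mixed cells the log2 ratio was −0.79; in the control tumour it had −3.24 and then −0.04. Mcpt1 had −5.28 and then −0.68 in the AF12198-treated tumour, and −3.33 and then −0.41 in the control tumour. Cxcl14 turned round, from −1.98 with mixed cells to 1.36 without them in the AF12198-treated tumour (39.5 CPM in Siglecf-positive against 14.8 CPM in Siglecf-negative cells) and from −2.04 to 0.26 in the control tumour. Cilp had −4.11 in the AF12198-treated tumour and 0.38 without mixed cells, where it was too low to be compared.

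Ranked without mixed cells, a ranking chosen after the data were seen, the higher genes also included Gpr171, a G protein-coupled receptor, and Rcan1, the calcineurin inhibitor that calcineurin-NFAT signalling itself induces. Gpr171 had 208 CPM in Siglecf-positive and 85.6 CPM in Siglecf-negative cells of the AF12198-treated tumour, and 116 CPM in positive and 65.2 CPM in negative cells of the control tumour. Rcan1 had 184 CPM in positive and 75.2 CPM in negative cells of the AF12198-treated tumour (ratio 2.45; 2.17 to 2.75), and 90.0 CPM in positive and 52.3 CPM in negative cells of the control tumour (ratio 1.72; 1.43 to 2.06). Rcan1 was seen in 14.0% of positive and 6.64% of negative cells of the AF12198-treated tumour, and in 10.2% and 6.52% in the control tumour. Both genes were higher in positive cells of both libraries. Lower genes ranked this way included the cytokine oncostatin M and a CXC chemokine. Osm had 95.4 CPM in positive and 290 CPM in negative cells of the AF12198-treated tumour (log2 ratio −1.59), and 143 CPM in positive and 353 CPM in negative cells of the control tumour (−1.30). Cxcl3 had 360 CPM in positive and 983 CPM in negative cells of the AF12198-treated tumour (−1.44), and 75.8 CPM in positive and 159 CPM in negative cells of the control tumour (−1.06).

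**Figure D2:**
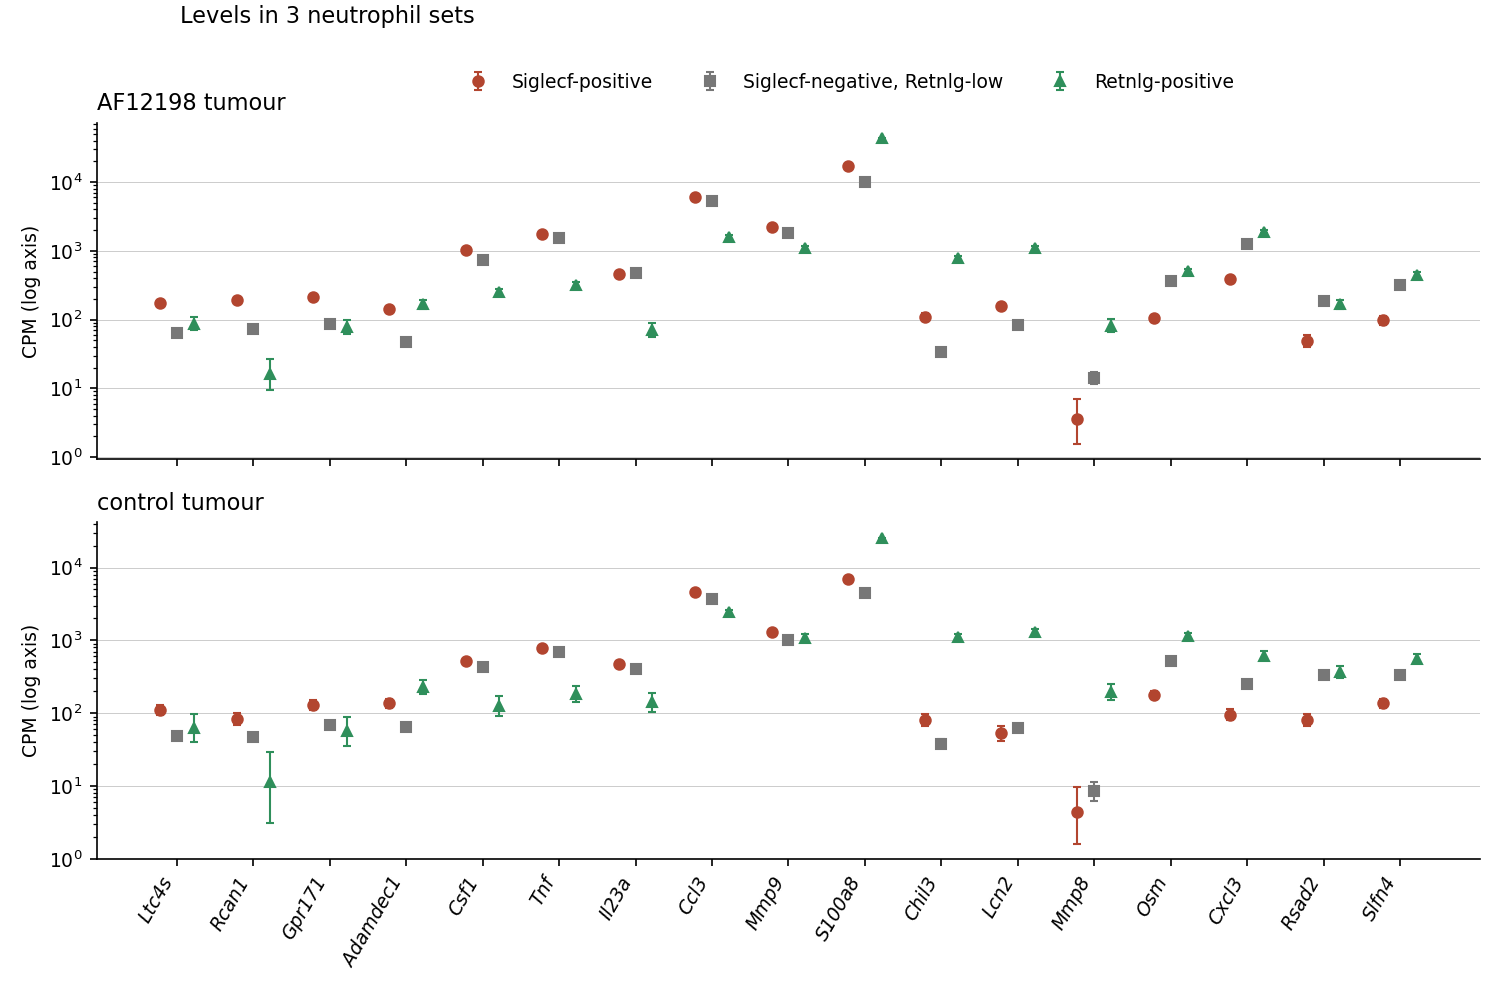
CPM (log axis) of 17 genes in Siglecf-positive (red circles), Siglecf-negative Retnlg-low (grey squares) and Retnlg-positive (green triangles) neutrophils of the AF12198-treated (top) and control (bottom) tumour, without mixed cells; whiskers are exact 95% Poisson intervals. Ltc4s, Rcan1 and Gpr171 are highest in the Siglecf-positive cells of both tumours, and Osm, Cxcl3 and Slfn4 are lowest there.

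Interferon-induced genes were the listed group with the most lower calls in both tumours. Of 24 tested in both, 10 were lower (Isg15, Ifit1, Rsad2, Oasl1, Irf7, Slfn4, Slfn5, Ifitm1, Ifi204, Ifi47) and 0 higher in Siglecf-positive cells. The median log2 ratio of the list was −0.67 in the AF12198-treated tumour and −0.65 in the control tumour, beside 0.10 and 0.01 over all genes tested. Isg15, the ubiquitin-like interferon-induced protein, had 387 CPM in Siglecf-positive and 609 CPM in Siglecf-negative cells of the AF12198-treated tumour, and 245 CPM in positive and 385 CPM in negative cells of the control tumour. Irf7, the transcription factor that amplifies interferon output, had 30.9 CPM in positive and 50.6 CPM in negative cells of the AF12198-treated tumour, and 33.5 CPM in positive and 62.0 CPM in negative cells of the control tumour. Ifit1, which binds foreign RNA, had 14.4 CPM in positive and 47.1 CPM in negative cells of the AF12198-treated tumour, and 22.0 CPM in positive and 57.3 CPM in negative cells of the control tumour. All 3 were lower in positive cells of both libraries. Slfn4, a myeloid Schlafen gene, had 91.8 CPM in positive and 245 CPM in negative cells of the AF12198-treated tumour, and 108 CPM in positive and 214 CPM in negative cells of the control tumour. Leaving out mixed cells brought 15 lower calls and medians of −0.83 and −0.76, against 0.17 and 0.10 over all genes.

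Of 11 eicosanoid genes tested, Ltc4s and Alox5, both of leukotriene synthesis, were higher in both tumours and 0 lower. Alox5, the lipoxygenase that starts leukotriene synthesis, had 91.4 CPM in Siglecf-positive and 53.6 CPM in Siglecf-negative cells of the AF12198-treated tumour, and 76.8 CPM in positive and 36.8 CPM in negative cells of the control tumour. Its partner Alox5ap was not called, with 166 CPM in positive and 201 CPM in negative cells of the AF12198-treated tumour, and 131 CPM in positive and 182 CPM in negative cells of the control tumour.

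Of 17 tested genes of the calcineurin and NFAT response, a list taken up because the series concerns NFAT, 3 were higher in both tumours (Rcan1, Nr4a2, Egr3) and 0 lower. Nr4a2, an orphan nuclear receptor of activated cells, had 687 CPM in Siglecf-positive and 336 CPM in Siglecf-negative cells of the AF12198-treated tumour, and 979 CPM in positive and 613 CPM in negative cells of the control tumour. Egr3, a zinc-finger factor induced by the same signals, lost its call in both tumours without mixed cells (log2 ratios 0.35 and 0.58). Rcan1 and Nr4a2 were the members higher with and without mixed cells.

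Of 20 genes that mark tumour neutrophils in mouse cancers, 3 were higher, among them Vegfa and Ltc4s, and Hmox1 was lower in both tumours. Vegfa, the endothelial growth factor, had 440 CPM in Siglecf-positive and 256 CPM in Siglecf-negative cells of the AF12198-treated tumour, and 715 CPM in positive and 440 CPM in negative cells of the control tumour, where its log2 ratio without mixed cells (0.55) was not called. Hmox1, which breaks down haem, had 117 CPM in positive and 177 CPM in negative cells of the AF12198-treated tumour, and 92.8 CPM in positive and 150 CPM in negative cells of the control tumour. Cd274, the checkpoint ligand PD-L1, stood at 539 CPM in positive and 630 CPM in negative cells of the AF12198-treated tumour, and 341 CPM in positive and 343 CPM in negative cells of the control tumour. Spp1, osteopontin, stood at 1120 CPM in positive and 1530 CPM in negative cells of the AF12198-treated tumour, and 1220 CPM in positive and 1430 CPM in negative cells of the control tumour, and like Cd274 was not called. The chemokine gene Ccl3 had 5810 CPM in positive and 4040 CPM in negative cells of the AF12198-treated tumour, not called, and 3860 CPM in positive and 2300 CPM in negative cells of the control tumour, called higher. Without mixed cells the control tumour had 3650 CPM of Ccl3 at 0 Siglecf UMIs. It had 4550, 4810 and 4960 CPM at 1, 2 and 3 or more, all under the 1.5-fold bound.

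Among 21 cytokine and chemokine genes 0 were higher and 6 lower in both tumours (Ccl2, Ccl6, Cxcl3, Il6, Osm, Areg), of which Ccl6, Cxcl3, Il6 and Osm remained without mixed cells. Il6 had 10.4 CPM in Siglecf-positive and 47.8 CPM in Siglecf-negative cells of the AF12198-treated tumour, and 60.4 CPM in positive and 145 CPM in negative cells of the control tumour. Il1b, a main ligand of IL1R1, was among the most abundant genes of these lists and was not called. It had 8560 CPM in positive and 9310 CPM in negative cells of the AF12198-treated tumour. In the control tumour it had 8710 CPM in positive and 7550 CPM in negative cells. Tnf had 1680 CPM in positive and 1170 CPM in negative cells of the AF12198-treated tumour, and 627 CPM in positive and 437 CPM in negative cells of the control tumour, under the 1.5-fold bound in both.

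The maturation and granule list split, with 4 of 18 higher (Chil3, Cd177, S100a8, S100a9) and 4 lower, among them Wfdc17, Slpi and Lrg1. Slpi, an inhibitor of neutrophil elastase, had 160 CPM in Siglecf-positive and 302 CPM in Siglecf-negative cells of the AF12198-treated tumour, and 130 CPM in positive and 312 CPM in negative cells of the control tumour. Cd177, a neutrophil surface protein, lost its calls without mixed cells (log2 ratios 0.50 and 0.35). All 6 tested MHC class II genes were lower, with H2-Aa at 391 CPM in positive and 775 CPM in negative cells of the AF12198-treated tumour, and 526 CPM in positive and 1020 CPM in negative cells of the control tumour. The dendritic cell list was lower too, at 440 CPM in positive and 940 CPM in negative cells of the AF12198-treated tumour, and 641 CPM in positive and 1200 CPM in negative cells of the control tumour. That list holds H2-Ab1, itself an MHC class II gene, so it is not a separate measure. Without mixed cells H2-Aa and its chaperone Cd74 remained lower in both tumours. Cell cycle genes followed the same pattern, with 5 of 6 lower and only Stmn1 of 4 without mixed cells.

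The remaining lists held few calls in both tumours, where 1.51% of all genes tested were higher and 5.42% lower. Glycolysis and hypoxia genes had 2 of 24 higher (Vegfa, Ankrd37) and Ddit4 lower, and lipid and iron storage genes 1 of 12 higher (Acsl1) and 3 lower (Fabp4, Hmox1, Dgat2). Receptor and adhesion genes had 1 of 27 higher (Clec4n, the fungal-sugar receptor Dectin-2) and 2 lower (Tlr2, Fcgr4). Immunoregulatory genes had Lgals3 of 15 lower, and oxidant genes had Hmox1 of 15 lower. No gene was called in both tumours among 13 Siglec-related receptors, 22 NF-kB genes, 14 survival genes, 15 endoplasmic reticulum stress genes and 20 dissociation-response genes.

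**Figure D3:**
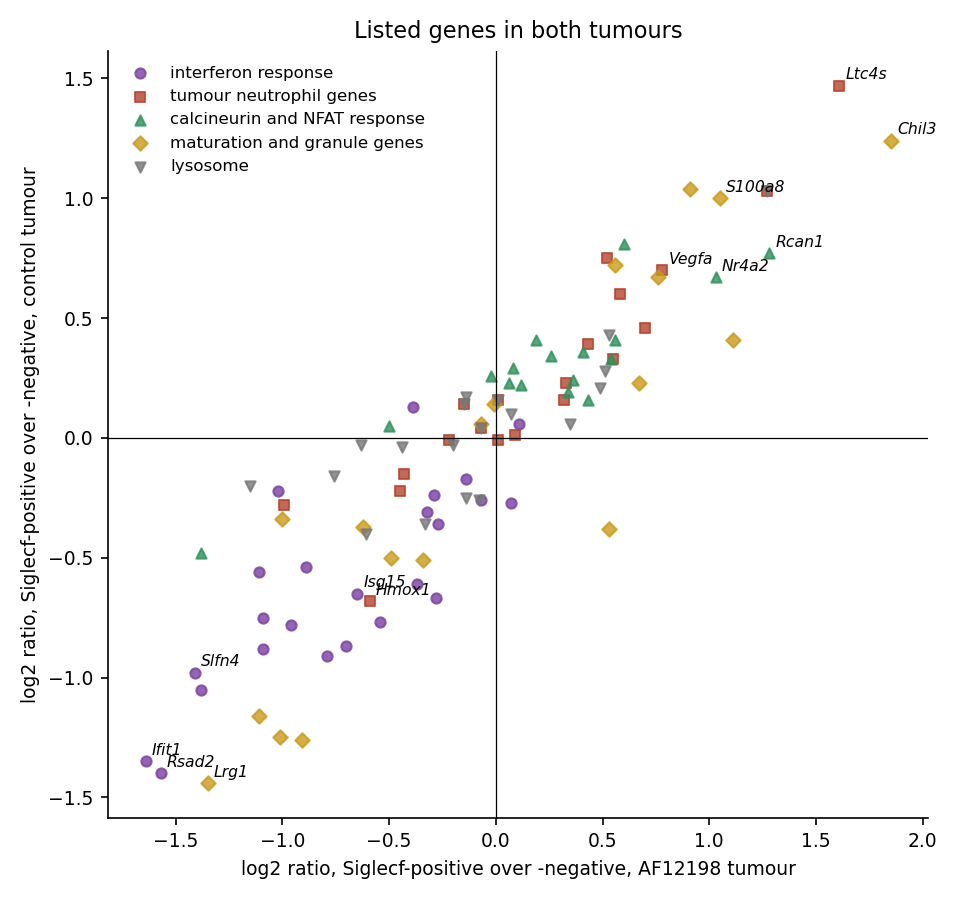
Log2 ratio of CPM + 1 in Siglecf-positive over Siglecf-negative neutrophils, in the AF12198-treated tumour (x) and the control tumour (y), for the tested genes of 5 lists, each point 1 gene. Ltc4s lies at 1.61 and 1.47 at the upper right, and the interferon-induced Rsad2 at −1.57 and −1.40 at the lower left.

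The genes named above were also read by the number of Siglecf molecules per cell; they were chosen by the contrast of 0 with 1 or more, so only the steps above 1 add to it. In Retnlg-low neutrophils without mixed cells, taken at 0, 1, 2 and 3 or more Siglecf UMIs (4467, 822, 224 and 86 cells of the AF12198-treated tumour; 2948, 466, 117 and 54 of the control tumour), Adamdec1 had 47.1, 114, 145 and 359 CPM in the AF12198-treated tumour and 65.4, 123, 148 and 216 CPM in the control tumour. The Adamdec1 value was higher at each step in both libraries, while the intervals at 1 and 2 UMIs overlapped, as did those at 2 and at 3 or more UMIs in the control tumour. Osm had 367, 112, 99.8 and 42.2 CPM in the AF12198-treated tumour, and 528, 191, 198 and 67.4 CPM in the control tumour. Ltc4s had 63.6, 151, 227 and 222 CPM in the AF12198-treated tumour, and 49.0, 115, 86.5 and 142 CPM in the control tumour. Rsad2 had 185, 51.3, 52.2 and 21.1 CPM in the AF12198-treated tumour, and 332, 86.7, 68.5 and 67.4 CPM in the control tumour. Above 1 UMI these 3 genes showed no steady order in both libraries. Median UMIs per cell moved with the steps (1295, 1579, 1658 and 1774, and 1352, 1610, 1949 and 2352), so depth was not level across them. With Siglecf-negative cells weighted to the depth of Siglecf-positive ones, the log2 ratios of Ltc4s were 1.51 in the AF12198-treated and 1.25 in the control tumour, and those of Rsad2 −1.51 and −1.59.

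**Figure D4:**
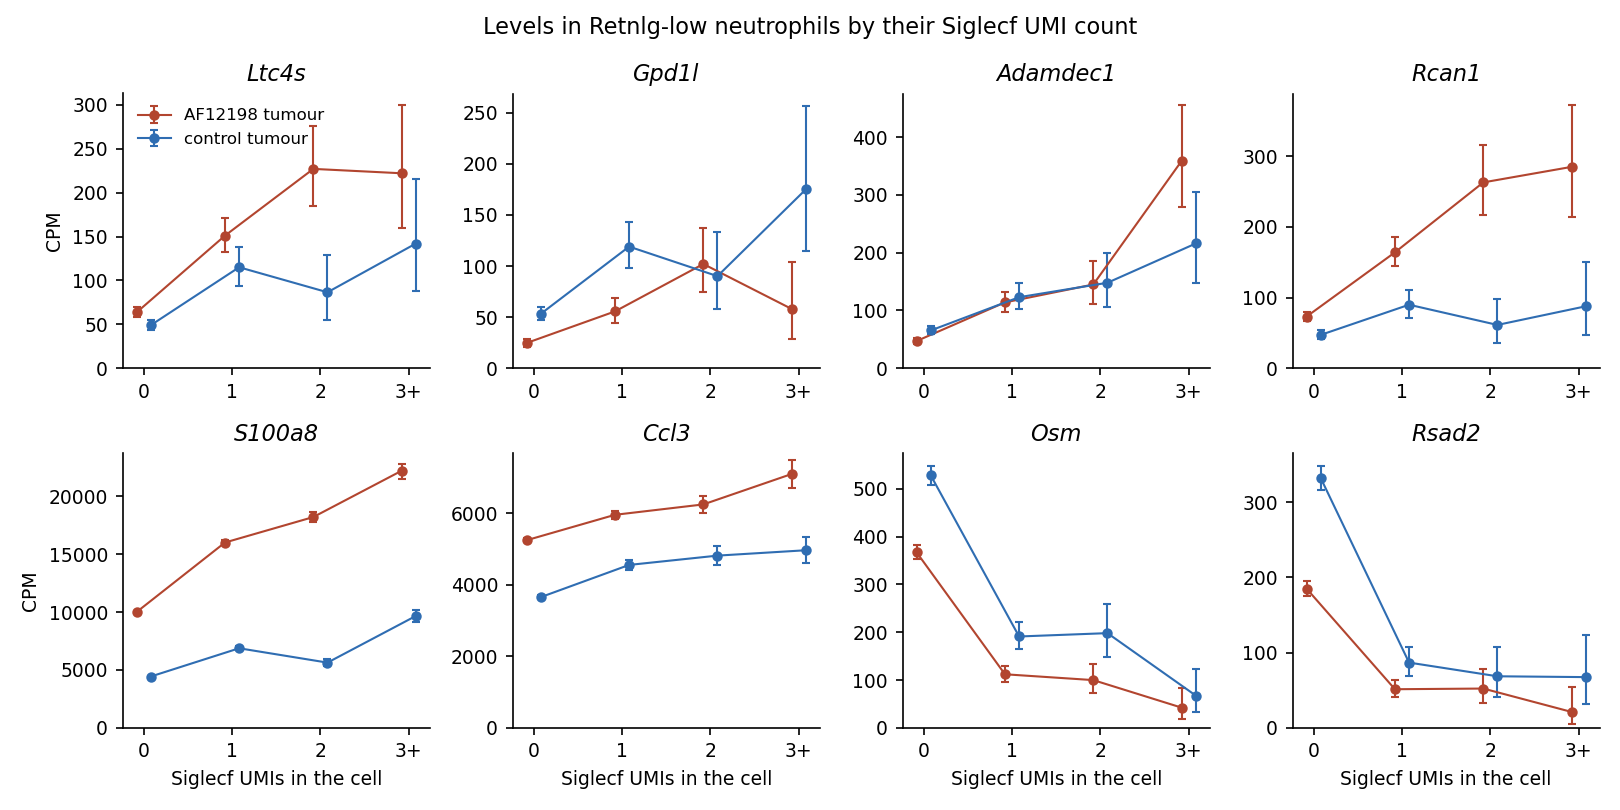
CPM of 8 genes in Retnlg-low neutrophils without mixed cells, by the cell's number of Siglecf UMIs (0, 1, 2, 3 or more), in the AF12198-treated (red) and control (blue) tumour; points are sums over cells and whiskers exact 95% Poisson intervals. Adamdec1 climbs to 359 and 216 CPM at 3 or more, while Osm drops to 42.2 and 67.4 CPM.

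Siglecf-positive cells were also set against Retnlg-positive neutrophils. These sets differ by the Retnlg bound of the rule, and Siglecf-negative Retnlg-low cells were not compared with Retnlg-positive cells. A difference listed here therefore need not be particular to Siglecf-positive cells. In both tumours 439 of 4992 genes (8.79%) were higher and 298 (5.97%) lower; singly, 27.5% were higher and 10.5% lower in the AF12198-treated tumour and 15.2% and 8.26% in the control tumour. The median log2 ratio over all genes was 0.32 in the AF12198-treated tumour and 0.22 in the control tumour, and with that shift taken out the higher share of calls was 38.6% instead of 72.4% and 35.9% instead of 64.8%. The top-ranked genes named next kept their calls with the shift taken out; among the listed genes, Ltc4s in the control tumour (log2 ratio 0.72) would not.

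Rcan1 headed the higher genes, with 184 CPM in Siglecf-positive and 16.1 CPM in Retnlg-positive cells of the AF12198-treated tumour (ratio 11.4; 7.05 to 19.8), and 90.0 CPM in Siglecf-positive and 18.4 CPM in Retnlg-positive cells of the control tumour (ratio 4.90; 2.43 to 11.5). Tnf had 1680 CPM in Siglecf-positive and 311 CPM in Retnlg-positive cells of the AF12198-treated tumour (ratio 5.39; 4.82 to 6.05), and 627 CPM in Siglecf-positive and 154 CPM in Retnlg-positive cells of the control tumour (ratio 4.08; 3.19 to 5.30). Csf1, the growth factor of macrophages, had 964 CPM in Siglecf-positive and 241 CPM in Retnlg-positive cells of the AF12198-treated tumour, and 443 CPM in Siglecf-positive and 129 CPM in Retnlg-positive cells of the control tumour. All 3 were several-fold higher in Siglecf-positive than in Retnlg-positive cells. Without mixed cells, Csf1 had 741 CPM at 0 and 1000 CPM at 1 Siglecf UMI in Retnlg-low cells of the AF12198-treated tumour. In the control tumour it had 430 and 497 CPM. Tnf had 1520 and 1700 CPM in the AF12198-treated tumour and 696 and 711 CPM in the control tumour. Higher Tnf and Csf1 than in Retnlg-positive cells was thus not particular to Siglecf-positive cells. Il23a, the specific subunit of interleukin-23, had 445 CPM in Siglecf-positive and 67.3 CPM in Retnlg-positive cells of the AF12198-treated tumour, and 377 CPM in Siglecf-positive and 115 CPM in Retnlg-positive cells of the control tumour. The 10 top-ranked genes also held Gm19951, Plekho2, Rasgef1b, Scimp, Tmem273 and Eif3g. In the AF12198-treated tumour Gm19951 had 482 CPM in Siglecf-positive against 107 CPM in Retnlg-positive cells, Plekho2 410 against 149 CPM, Rasgef1b 142 against 33.2 CPM and Scimp 186 against 47.4 CPM. In the control tumour Gm19951 had 520 CPM in Siglecf-positive against 91.9 CPM in Retnlg-positive cells, Plekho2 395 against 142 CPM, Rasgef1b 80.1 against 25.3 CPM and Scimp 85.1 against 29.9 CPM.

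Of 19 maturation and granule genes tested in both tumours, 16 were lower and 0 higher, with medians of −2.00 and −2.52. Among the 10 top-ranked lower genes was Mmp8, the neutrophil collagenase, with 3.61 CPM in Siglecf-positive and 79.6 CPM in Retnlg-positive cells of the AF12198-treated tumour, and 3.29 CPM in Siglecf-positive and 170 CPM in Retnlg-positive cells of the control tumour. Lcn2, the iron-withholding granule protein lipocalin-2, had 145 CPM in Siglecf-positive and 1020 CPM in Retnlg-positive cells of the AF12198-treated tumour, and 73.6 CPM in Siglecf-positive and 1100 CPM in Retnlg-positive cells of the control tumour. Chil3 had 99.4 CPM in Siglecf-positive and 737 CPM in Retnlg-positive cells of the AF12198-treated tumour, and 62.0 CPM in Siglecf-positive and 923 CPM in Retnlg-positive cells of the control tumour. All 3 had far less in Siglecf-positive than in Retnlg-positive cells. Without mixed cells, Retnlg-low cells at 0 Siglecf UMIs had 33.4 CPM of Chil3 in the AF12198-treated tumour and 38.1 CPM in the control tumour. A Chil3 level under that of Retnlg-positive cells was thus not particular to Siglecf-positive cells. Wfdc21, an antimicrobial-type protein, had 117 CPM in Siglecf-positive and 966 CPM in Retnlg-positive cells of the AF12198-treated tumour, and 21.4 CPM in Siglecf-positive and 576 CPM in Retnlg-positive cells of the control tumour. Rdh12, a retinol dehydrogenase gene, had 12.8 CPM in Siglecf-positive and 178 CPM in Retnlg-positive cells of the AF12198-treated tumour, and 7.14 CPM in Siglecf-positive and 131 CPM in Retnlg-positive cells of the control tumour. The stefin A genes Stfa2l1, Stfa2 and Csta2, 9830107B12Rik and A530064D06Rik completed the 10; stefin A genes are near-identical copies, so their separate counts are uncertain. Retnlg itself was used by the rule.

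Of 20 tumour neutrophil genes 10 were higher (among them Ccl3, Ccl4, Csf1, Cstb, Spp1, Ltc4s, Irak2, Mif and Cd63), 2 were lower (Hmox1, Xdh) and 8 were not called alike in both tumours. Their median log2 ratios were 0.77 and 0.59, beside 0.32 and 0.22 over all genes. Ccl3 had 5810 CPM in Siglecf-positive and 1510 CPM in Retnlg-positive cells of the AF12198-treated tumour, and 3860 CPM in Siglecf-positive and 2180 CPM in Retnlg-positive cells of the control tumour. Ltc4s had 159 CPM in Siglecf-positive and 80.6 CPM in Retnlg-positive cells of the AF12198-treated tumour, and 95 CPM in Siglecf-positive and 57.4 CPM in Retnlg-positive cells of the control tumour. Calcineurin and NFAT response genes had 7 of 17 higher (Rcan1, Nr4a2, Egr2, Egr3, Nfatc1, Ppp3cb, Dusp2) and Tnfrsf9 lower, with Nr4a2 at 687 CPM in Siglecf-positive and 236 CPM in Retnlg-positive cells of the AF12198-treated tumour, and 979 CPM in Siglecf-positive and 503 CPM in Retnlg-positive cells of the control tumour. Cytokine genes had 7 of 19 higher (Ccl3, Ccl4, Cxcl16, Tnf, Il23a, Csf1, Hbegf) and 3 lower (Ccl6, Cxcl3, Osm).

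Of 27 receptor and adhesion genes, many of which neutrophils use to find bacteria and damaged tissue, 12 were lower and 3 higher (Icam1, Ccrl2, Clec4n). Fpr1, the receptor for bacterial formyl peptides, had 19.6 CPM in Siglecf-positive and 105 CPM in Retnlg-positive cells of the AF12198-treated tumour, and 9.88 CPM in Siglecf-positive and 82.7 CPM in Retnlg-positive cells of the control tumour. Icam1, an adhesion receptor, had 812 CPM in Siglecf-positive and 293 CPM in Retnlg-positive cells of the AF12198-treated tumour, and 507 CPM in Siglecf-positive and 246 CPM in Retnlg-positive cells of the control tumour. Siglec-related receptors had 5 of 14 lower (Cd33, Cd300ld, Cd300lf, Cd300lb, Lilr4b) and 0 higher, with Cd33, another sialic-acid-binding receptor, at 241 CPM in Siglecf-positive and 511 CPM in Retnlg-positive cells of the AF12198-treated tumour, and 224 CPM in Siglecf-positive and 457 CPM in Retnlg-positive cells of the control tumour. Interferon-induced genes had 10 of 24 lower and Bst2 higher.

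Over all genes tested in both tumours, 8.79% were higher and 5.97% lower. In the other lists, lysosome genes had 4 of 19 higher and 1 lower and NF-kB genes 3 of 22 higher and 0 lower. Survival genes had 3 of 14 higher and 2 lower, and glycolysis and hypoxia genes 2 of 23 higher and 1 lower. Lipid and iron storage genes had 1 of 11 higher and 3 lower, oxidant genes 1 of 15 and 4, eicosanoid genes 1 of 10 and 4, and immunoregulatory genes 1 of 15 and 2. Endoplasmic reticulum stress, dissociation-response, MHC class II and cell cycle genes had none called in both tumours of 15, 20, 6 and 3 tested.

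The treatment comparison set Siglecf-positive cells of the AF12198-treated tumour against those of the control tumour. Of 6293 genes, 527 (8.37%) were higher and 1945 (30.9%) lower in the AF12198-treated tumour. The median log2 ratio of all genes was −0.30, and with that shift taken out 1082 were higher and 1169 lower, so that higher calls made up 48.1% of calls instead of 21.3%. Listed genes with a small negative ratio, such as Vegfa (log2 ratio −0.70), would not be called lower relative to that median. Without mixed cells 9.16% of 5876 genes were higher and 25.4% lower. Siglecf-negative cells of the same libraries gave 477 of 6445 (7.4%) higher and 2225 (34.5%) lower, with a median of −0.37. Whether any gene responded differently in Siglecf-positive and Siglecf-negative cells was not tested.

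The top-ranked genes on both sides are known mostly from other cell types. All 10 higher ones were acinar enzyme genes (Pnliprp1, Try5, Try4, Ctrb1, Cela3b, Sycn, Ctrl, Cpb1, Cpa1 and 2210010C04Rik). Ctrb1, chymotrypsinogen, had 2960 CPM in Siglecf-positive cells of the AF12198-treated tumour against 24.2 CPM in the control tumour, and 370 against 27.2 CPM without mixed cells; Siglecf-negative cells without mixed cells had 393 against 31.6 CPM. The 10 lower ones were an antibody gene, Ighg1 (35.3 against 1320 CPM), and stromal or tumour cell genes such as Grem1 (0.802 against 77.4 CPM), Cxcl13, Gas1, Col8a1, Pdgfra, Cxcl12, Hmga2, Penk and Mfap5. Without mixed cells Ighg1 (log2 ratio −5.55) and Hmga2 (−3.52) were still called lower, and the other 8 held too few UMIs to be compared. Among these, 3 no longer lay on the lower side: Grem1 (0.13), Gas1 (0.92) and Cxcl13 (0.53), with Gas1 and Cxcl13 at 0 UMIs in the control tumour. With the free RNA estimated above (22.0% and 53.0%) subtracted, and mixed cells kept, 838 genes were higher. All 20 of the top-ranked genes kept their calls. The acinar list in Siglecf-positive cells of the AF12198-treated tumour had 5600 CPM with mixed cells, 35.3% of it in 1 cell. Without mixed cells it had 916 CPM. Mixed cells and free RNA were not taken out together, so this setting cannot tell whether the calls would then remain.

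Among neutrophil genes, the maturation and granule list stood highest in the AF12198-treated tumour, with 12 of 18 higher and 1 lower (S100a6) and a median log2 ratio of 0.98 beside −0.30 over all genes; in Siglecf-negative cells the median was 0.67. S100a8 had 15700 CPM in the AF12198-treated and 5590 CPM in the control tumour (log2 ratio 1.49), and S100a9 15400 CPM with AF12198 and 6330 CPM in the control (1.29). Wfdc21 had 117 CPM with AF12198 and 21.4 CPM in the control, Stfa2l1 66.5 CPM with AF12198 and 18.1 CPM in the control, and Mmp9, the gelatinase of neutrophil granules, 2060 CPM with AF12198 and 1040 CPM in the control. Siglecf-negative cells showed a like S100a8 ratio, at 7600 CPM with AF12198 and 2800 CPM in the control (1.44).

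Of the interleukin-1 pathway genes, which the treatment is aimed at, Il1a was called higher, while Il1b, Il1rn and Il1rap were not called. Il1b had 8560 CPM in Siglecf-positive cells of the AF12198-treated tumour and 8710 CPM in those of the control tumour (log2 ratio −0.02), and Il1rn, the natural receptor antagonist, 3550 CPM with AF12198 and 3120 CPM in the control (0.19). Il1a had 1190 CPM with AF12198 and 426 CPM in the control (1.48), and Il1rap, the receptor's accessory chain, 107 CPM with AF12198 and 88.4 CPM in the control (0.28). Il1r1, which encodes IL1R1, was called lower at a low level, 4.01 CPM with AF12198 and 27.4 CPM in the control. Without mixed cells it had 1.79 CPM with AF12198 and 8.82 CPM in the control, too little to be compared.

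Of 21 cytokine and chemokine genes 9 were higher in the AF12198-treated tumour (Cxcl3, Il1a, Tnf, Ccl6, Csf1, Cxcl2, Ccl4, Hbegf, Ccl3). Another 4 were lower (Il6, Ccl2, Cxcl16, Cxcl1), and the list's median was 0.24. Over all genes 8.37% were higher and 30.9% lower, with a median of −0.30. Cxcl3 had 360 CPM with AF12198 and 75.8 CPM in the control (log2 ratio 2.23), Cxcl2, a chemokine that draws neutrophils, 26200 CPM with AF12198 and 12300 CPM in the control (1.09), and Tnf 1680 CPM with AF12198 and 627 CPM in the control (1.42). Csf1 had 964 CPM with AF12198 and 443 CPM in the control (1.12). Siglecf-negative cells had a Tnf log2 ratio of 1.42 too, with 1170 CPM with AF12198 and 437 CPM in the control. Without mixed cells Ccl3 had 5950 CPM with AF12198 and 4550 CPM in the control at 1 Siglecf UMI. It had 6240 and 4810 CPM at 2 UMIs, and 7090 and 4960 CPM at 3 or more. Ccl3 was thus under the 1.5-fold bound at each count once mixed cells were left out.

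Of 12 lipid and iron storage genes, 5 were higher and Lpl was lower, beside 8.37% higher and 30.9% lower over all genes. Ftl1, the light ferritin chain, was at 3850 CPM with AF12198 and 1430 CPM in the control and Fth1, the heavy chain, at 14000 CPM with AF12198 and 6910 CPM in the control. The tumour neutrophil list had 7 of 20 higher (Clec5a, Csf1, Ccl4, Cstb, Ltc4s, Cd274, Ccl3) and 2 lower (Xdh, Vegfa). Cd274 had 539 CPM with AF12198 and 341 CPM in the control and Vegfa 440 CPM with AF12198 and 715 CPM in the control. Without mixed cells Cd274 had 560 CPM with AF12198 and 386 CPM in the control at 1 Siglecf UMI. It had 615 and 443 CPM at 2 UMIs, and 443 and 479 CPM at 3 or more. Cd274, like Ccl3 above, was then under the 1.5-fold bound at each count. Of the genes that set Siglecf-positive apart from Siglecf-negative cells, Ltc4s (159 CPM with AF12198 and 95 CPM in the control) and Rcan1 (184 CPM with AF12198 and 90.0 CPM in the control) were called higher in the AF12198-treated tumour, while Adamdec1 (131 CPM with AF12198 and 107 CPM in the control) was not called. Bcl2a1b, a survival gene, had 1430 CPM with AF12198 and 423 CPM in the control, with its near-identical copies Bcl2a1a and Bcl2a1d also higher, so reads may be split among the copies.

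Of 20 genes known to rise when tissue is digested, 14 were lower and 0 higher in the AF12198-treated tumour, with a median of −1.18; in Siglecf-negative cells the median was −0.83. Fos, an immediate-early transcription factor, had 410 CPM with AF12198 and 2210 CPM in the control (log2 ratio −2.43), Dusp1, a kinase phosphatase, 1280 CPM with AF12198 and 4200 CPM in the control (−1.71), and the heat shock gene Hspa1b 467 CPM with AF12198 and 2940 CPM in the control (−2.65). Calcineurin and NFAT response genes, which share immediate-early members with that list, had Rcan1 higher and 6 of 16 lower, with a median of −0.48. The lower ones were Nr4a1, Ptgs2, Egr1, Ppp3r1, Ppp3ca and Ppp3cb. Over all genes 30.9% were lower and the median was −0.30, so this list lay near the level of all genes. Nr4a1 had 809 CPM with AF12198 and 2710 CPM in the control, and Ptgs2, the inducible prostaglandin synthase, 2490 CPM with AF12198 and 5830 CPM in the control. The part of tissue digestion in these differences was not tested.

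**Figure D5:**
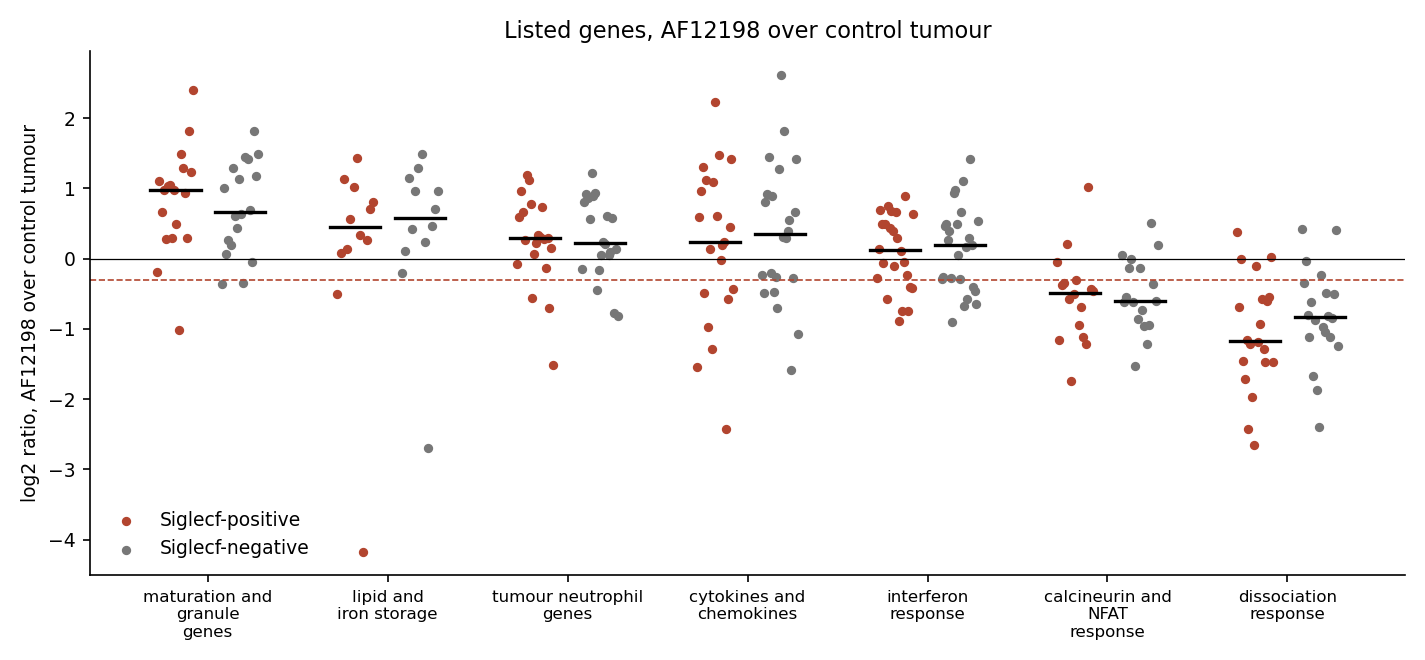
Log2 ratio of CPM + 1 in the AF12198-treated over the control tumour for the tested genes of 7 lists, in Siglecf-positive (red) and Siglecf-negative (grey) neutrophils; points are genes, black bars list medians and the dashed line the median of all genes in Siglecf-positive cells (−0.30). Maturation genes lie highest (median 0.98) and dissociation-response genes lowest (median −1.18).

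The other lists held calls in both directions or few, beside 8.37% higher and 30.9% lower over all genes. Oxidant genes had 8 of 16 higher and 4 lower, receptor and adhesion genes 8 of 27 and 1, interferon-induced genes 6 of 24 and 3 (Oasl1, Rsad2, Slfn5), NF-kB genes 6 of 23 and 3, Siglec-related receptors 5 of 14 and 0, and survival genes 4 of 14 and 1. Immunoregulatory genes had 3 of 16 higher and 3 lower, glycolysis and hypoxia genes 3 of 24 and 5, lysosome genes 2 of 19 and 4, and eicosanoid genes 2 of 12 and 5. Endoplasmic reticulum stress genes had 0 of 15 higher and 4 lower, and cell cycle genes 0 of 7 and 5. MHC class II genes had 0 of 6 higher and 2 lower, and all 6 lower without mixed cells (median −1.08).

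With no Siglecf-positive cell in the ligated pancreas, only its 98 Siglecf-negative Retnlg-low neutrophils can be set beside the tumours. Ltc4s, Adamdec1, Gpr171 and Chil3 had 0 UMIs there, which allows up to 10.1 CPM for each, under the Siglecf-negative cells of both tumours. Rcan1 had 23.7 CPM. Csf1 had 227 CPM, Tnf 77.8 CPM, S100a8 2220 CPM and Osm 199 CPM. In that sum 40 of the 98 cells were mixed and the fibroblast list reached 20300 CPM, and in the 58 others Csf1 had 320 CPM, Tnf 145 CPM, S100a8 4390 CPM and Osm 349 CPM.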

How the data were processed

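Per the labels' protocols, the tissue spent 90 minutes at 37°C in 2 collagenases and was strained at 100 and 40 µm; libraries were 10x Genomics 3′ (v3). The deposited values are UMI counts per gene and barcode, 1 matrix of 32285 genes per library, which the authors made with Cell Ranger 6.0.0 and mm10, as the submitters' processing notes record. Which annotation and which cell-calling settings they used is not given in the sources used here. No barcode of the control tumour matrix has under 760 UMIs. No column of per-sample values was left unused.

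Counts of each cell set were summed per library and scaled to CPM. With 1 library per group no test was run: ratios carry exact conditional 95% intervals, levels exact Poisson intervals and shares exact binomial (Clopper-Pearson) intervals, and a count of 0 is given its limit of 3 counts. PCR and free RNA lie outside these intervals. Genes were compared at 25 or more UMIs over both sums and at least 20 CPM in 1 of them, and called at a ratio of 1.5 with the interval excluding 1. Log2 ratios are of CPM + 1. The named genes are the 10 called genes with the largest log2 ratio in each direction and at least 50 CPM in the higher set; where both tumours are set side by side, they had to be called alike in both and were ranked by the smaller ratio. The genes of the rule, mitochondrial and ribosomal protein genes were left out of the ranking. The members, the 19 gene lists (3 of whose genes are not in the matrix) and the comparisons were chosen with earlier results of these data known. Cell sets other than neutrophils (T cells, macrophages and so on) were picked by marker genes, not clusters. Results on some genes are not reported here.

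Doublets were kept, and leaving them out was an alternative: Scrublet's automatic threshold called 2163 of the control tumour's cells but only 1 of 19868 in the AF12198-treated tumour, where the 5% with the highest scores (993) were taken. These held 38 of the 1198 Siglecf-positive cells of the AF12198-treated tumour and 52 of the 696 of the control tumour. The call procedure was checked on simulated counts. The free RNA estimate is an upper one, from genes of other cell types. Other alternatives were the filters, the pseudocount, a stricter Siglecf bound, equal weight for each cell, removal of the median shift, and leaving out mixed cells, cells over 8000 UMIs or the estimated free RNA. Tools were Python 3.11.15, NumPy 2.4.6, pandas 2.3.3, SciPy 1.17.1, Scanpy 1.11.5 and Matplotlib 3.10.9. Promoters came from RefSeq (GRCm38.p6).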

Additional observations from a re-analysis of the deposited data

Results flagged for a closer look

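The genes below were called in opposite directions in the AF12198-treated and control tumours; the difference between the tumours was not tested. For Siglecf-positive over Siglecf-negative cells, the acinar enzyme genes had log2 ratios of 1.07 and −1.51 (2210010C04Rik), 0.97 and −1.86 (Cpb1), 1.12 and −1.92 (Ctrb1), 0.67 and −2.72 (Pnliprp1) and 1.12 and −1.92 (Try5) in the AF12198-treated and the control tumour. Without mixed cells these came to −0.21 and −0.36, −0.21 and 0.12, −0.09 and −0.21, −0.16 and −1.35, and −0.31 and −0.46. Hmga2, a chromatin protein of tumour cells, had −2.41 and 0.68 (−2.17 and 0.56 without mixed cells), and Penk, proenkephalin, −2.38 and 0.81 (−0.80 and −1.92).

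For Siglecf-positive over Retnlg-positive cells, 2210010C04Rik had 0.73 and −3.32, Cpa1 0.81 and −3.31, and Cpb1 0.87 and −2.21 (without mixed cells 0.18 and 0.64, −0.01 and −0.72, and 0.16 and 1.34). Arg1, the arginine-degrading enzyme of suppressive myeloid cells, had 1.12 and −0.82, from 30.1 and 13.3 CPM in Siglecf-positive and Retnlg-positive cells of the AF12198-treated tumour, and 41.2 and 73.5 CPM in the control tumour. Arg1 kept its opposite signs without mixed cells, at 1.34 and −0.77. With mixed cells kept, a single Retnlg-positive cell of the control tumour held as many Arg1 UMIs as the rest of that set. The negative sign in the control tumour thus leans on a single cell, and the ratio without that cell was not tested.

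Epcam-positive cells, which the rule leaves out, held a Siglecf UMI in 11% of cells in the AF12198-treated tumour and 5.13% in the control tumour, at median depths of 7620 and 8392 UMIs. Thinned to 1000 UMIs these shares were 3.67% (2.60 to 5.02) in the AF12198-treated tumour, against 1.40% (0.947 to 1.99) in T cells, and 1.47% in the control tumour, beside 1.44% in T cells. Those without a UMI of the 6 gate genes held one in 0.628% of 478 cells in the AF12198-treated tumour and in 0 of 197 in the control tumour, which allows up to 1.52%. Those with 3 or more gate UMIs held one in 28.7% and 13.4%.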

How the results depend on the processing

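No paired analysis was possible because each group is 1 library and the labels give no replicate numbers. The ratio of the Siglecf-positive shares stayed between 1.14 and 1.26 under the 7 alternatives run for it. In both tumours, genes higher in Siglecf-positive than Siglecf-negative cells numbered 166 with the positive bound at 2 Siglecf UMIs, 41 with a pseudocount of 10 CPM and 129 with equal weight per cell, instead of 80; lower genes numbered 678 with no CPM filter, 143 without mixed cells and 189 with equal weight, instead of 288. Against Retnlg-positive cells, removing the median shift gave 133 higher and 490 lower, instead of 439 and 298. In the AF12198-treated over the control tumour it gave 1082 higher and 1169 lower, instead of 527 and 1945; subtracting free RNA gave 838 higher, and a bound of 2 Siglecf UMIs, with fewer cells, 1085 lower. The other 65 values of this kind stayed within 1.5 times. The share of higher calls for Siglecf-positive over Siglecf-negative cells of the AF12198-treated tumour, 35.1%, was 59.6% without cells over 8000 UMIs, 70.1% with equal weight and 20.2% with the shift removed; in the control tumour, 26.9%, it was 45.3% with equal weight and 41.5% at 2 Siglecf UMIs. For the AF12198-treated over the control tumour it was 38.8% with free RNA subtracted.

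Of the named genes' values, 1116 kept their call, 35 kept the direction but lost it (14 without mixed cells) and 9 reversed: Cxcl14 in the AF12198-treated tumour (1.36 without mixed cells, 0.72 without cells over 8000 UMIs, 0.21 with equal weight) and in the control tumour (0.26 without mixed cells), Cilp (0.38), and, between the tumours, Grem1 (0.13), Gas1 (0.92) and Cxcl13 (0.53) without mixed cells and Cxcl13 (0.52) without cells over 8000 UMIs. The cause was not tested beyond these settings. Leaving out mixed or very deep cells, equal weight and dropping the C1qa exclusion were chosen after seeing the data. No gene comparison was run for the ligated pancreas, which has 0 Siglecf-positive cells. Depth is a limit throughout: most Siglecf-positive cells rest on 1 Siglecf UMI, so some Siglecf-negative cells may be expressing cells in which no molecule was captured, and genes under 20 CPM were not compared.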

Other observations

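Slc7a11, the cystine transporter that feeds glutathione synthesis, is described here after its values were seen. It had 1280 CPM in Siglecf-positive, 1750 CPM in Siglecf-negative and 2790 CPM in Retnlg-positive cells of the AF12198-treated tumour, and 725, 915 and 2240 CPM in those sets of the control tumour. The ratio of Siglecf-positive to Retnlg-positive cells was 0.459 (0.437 to 0.483) in the AF12198-treated tumour and 0.324 (0.298 to 0.352) in the control tumour. Arg2, the mitochondrial arginase, had the same order against Retnlg-positive cells, with 211 and 445 CPM in Siglecf-positive and Retnlg-positive cells of the AF12198-treated tumour, and 159 and 402 CPM in the control tumour. Cxcr4, a chemokine receptor known from aged neutrophils, was not called in any of these comparisons, with 468 CPM in Siglecf-positive, 529 CPM in Siglecf-negative and 387 CPM in Retnlg-positive cells of the AF12198-treated tumour, and 336, 338 and 292 CPM in the control tumour.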
